A study of Mus musculus with 8 samples.

Results

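A set of 10 genes used to describe tissue-resident and scavenger macrophages was followed through single cells of the mouse colon. They were taken by name from the table of UMI counts (unique molecular identifiers, a count of captured RNA molecules), and all 10 were among its 16889 genes. They are Adgre1, Cd4, Timd4, Cd163, Mrc1, Stab1, Folr2, Lyve1, Pf4 and Fcrls. On GRCm38 they lie on chromosomes 17 (Adgre1), 6 (Cd4 and Cd163), 11 (Timd4), 2 (Mrc1), 14 (Stab1), 7 (Folr2 and Lyve1), 5 (Pf4) and 3 (Fcrls). The cells were CD11b+ and carried CCR2 or CD64, and were sorted out of the colonic lamina propria of CD98hcΔCX3CR1 mice. These combine a floxed CD98hc gene (Slc3a2) with a tamoxifen-inducible Cre, CreER, and YFP under the Cx3cr1 promoter. The 4 control mice received corn oil and the 4 cKO mice received tamoxifen on 5 days, and cells were taken on day 7. All were female littermates of 6 to 12 weeks, with a well per mouse. Tamoxifen itself and the loss of CD98hc cannot be told apart in this design, and the deletion is limited to cells that use the Cx3cr1 promoter.

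Macrophages of the gut wall are for the most part renewed from blood monocytes, which lose monocyte genes and gain complement C1q, scavenger receptors and phagocytic receptors as they mature. A smaller, long-lived population is known by TIM-4 and CD4 on its surface, and macrophages next to blood vessels by LYVE1 and FOLR2. Several of the 10 genes are receptors for the uptake of dying cells, modified lipoproteins, glycans or folate. The UMI counts come from the 3′ end of each transcript and are counts of molecules, so levels are given as the gene's UMIs in 1000000 UMIs (CPM) and are not scaled by transcript length.

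After filtering, 3213 of 5947 cell barcodes were kept, between 83 and 724 per mouse, with 497531 to 3762314 UMIs per mouse. Control replicate 3 and cKO replicate 5 held under 100 cells each, and 24 of the 83 cells of cKO replicate 5 were called doublets. Among kept cells, 8 barcode sequences occurred in more than 1 library. Slc3a2, the targeted gene, lay at 358, 264, 233 and 493 CPM in control replicates 1 to 4 and at 291, 357, 323 and 309 CPM in cKO replicates 5 to 8. The groups overlapped, with a log2 fold change of 0.02 (SE 0.21, edgeR adjusted p = 0.976). A 3′ count lies outside the excised part and does not check the deletion.

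Cells were called C1q-high where C1qa, C1qb and C1qc, the 3 chains of complement C1q, made up at least 0.5% of their UMIs. This held for 1081 cells (33.6%), and 125 cells lay between 0.4 and 0.6%. The 10 genes were not used for this call. Of 18 macrophage identity genes, 17 were higher in C1q-high cells than in the other cells of the same mice and none was lower, led by Cd72 (log2 fold change 3.31), the apolipoprotein gene Apoe (3.10) and the tetraspanin gene Cd81 (2.58). C1q-high cells made up 39.6, 42.6, 40.0 and 33.5% of the cells of the control mice and 33.7, 28.9, 22.5 and 28.3% of those of the cKO mice. The means were 38.9% ± 3.84 and 28.4% ± 4.59 (SD, n = 4 each). They differed by -10.5 percentage points (p = 0.0571, exact permutation over the 70 arrangements, two-sided), and control replicate 4 and cKO replicate 5 overlapped.

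Of the members, 8 were higher in C1q-high cells than in other cells, and Timd4 was lower (edgeR with the mouse as a block, 8 mice). Across 11387 genes tested in this comparison, 9.24% were called higher and 13.7% lower at an adjusted p of 0.05. Lyve1 was not tested, since only 16 cells held a UMI. The median log2 fold change was 2.83 over the 9 members tested and -0.04 over all genes.

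**Figure D1:**
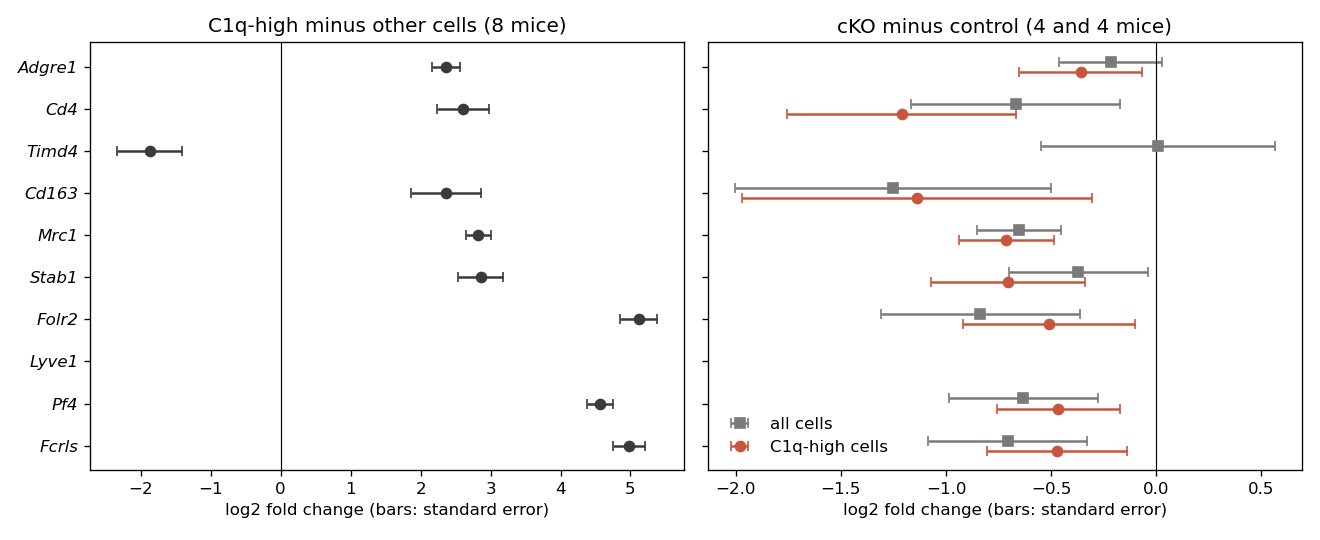
Fold changes of the members on the log2 scale with standard errors, for C1q-high minus other cells (left) and for cKO minus control (right, squares for all cells and circles for C1q-high cells). Folr2, Fcrls and Pf4 lie farthest to the right in the left panel at 5.12, 4.98 and 4.57, Timd4 lies at -1.87, and genes without a point were not tested.

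The largest differences were those of Folr2, Fcrls and Pf4. Folr2 encodes folate receptor beta, Fcrls an Fc receptor-like scavenger protein that also marks microglia, and Pf4 the chemokine CXCL4, best known from platelets. Folr2 was 34.7-fold higher in C1q-high cells (log2 fold change 5.12, SE 0.26, edgeR adjusted p = 1.6e-12), and 93.9% of its 346 UMIs lay in these cells, which held 29.2% of all UMIs. Fcrls was 31.6-fold higher (4.98, SE 0.23, edgeR adjusted p = 2.64e-13), with 92.8% of 1967 UMIs in C1q-high cells. Pf4 was 23.7-fold higher (4.57, SE 0.18, edgeR adjusted p = 3.09e-14), with 91.3% of 4487 UMIs there.

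Because these 3 genes stood apart, and Mrc1 had the lowest unadjusted p between the conditions, the 250 bases before their RefSeq start sites (build GRCm38.p6) are shown, with capitals at matches of GAGGAA on either strand, the core bound by the myeloid factor PU.1. For Folr2, the first of 2 listed start sites is shown.
Folr2, chr7:101857191-101857440, strand -: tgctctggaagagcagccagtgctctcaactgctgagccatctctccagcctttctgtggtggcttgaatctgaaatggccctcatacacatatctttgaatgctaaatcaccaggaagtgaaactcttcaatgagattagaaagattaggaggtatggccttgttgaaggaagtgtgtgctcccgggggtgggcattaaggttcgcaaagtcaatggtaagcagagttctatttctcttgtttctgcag
Fcrls, chr3:87263525-87263774, strand -: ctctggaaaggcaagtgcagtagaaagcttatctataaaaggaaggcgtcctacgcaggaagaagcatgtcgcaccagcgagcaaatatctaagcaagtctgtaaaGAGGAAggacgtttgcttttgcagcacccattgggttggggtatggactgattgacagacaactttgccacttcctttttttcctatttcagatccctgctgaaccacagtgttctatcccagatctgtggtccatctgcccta
Pf4, chr5:90772185-90772434, strand +: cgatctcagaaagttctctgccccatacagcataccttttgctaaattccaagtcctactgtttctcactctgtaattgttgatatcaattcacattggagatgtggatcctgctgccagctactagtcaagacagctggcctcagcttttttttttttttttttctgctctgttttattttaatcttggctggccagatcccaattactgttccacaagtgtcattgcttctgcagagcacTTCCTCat
Mrc1, chr2:14229164-14229413, strand +: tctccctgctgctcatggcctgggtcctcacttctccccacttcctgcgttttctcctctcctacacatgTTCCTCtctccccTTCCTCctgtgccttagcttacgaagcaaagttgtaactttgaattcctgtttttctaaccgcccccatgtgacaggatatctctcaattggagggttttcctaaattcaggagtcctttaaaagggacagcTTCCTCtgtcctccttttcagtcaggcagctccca

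RefSeq held such a sequence for 7 of the 10 members. GAGGAA occurred in 4 of the 7, once in Fcrls, Pf4 and Stab1 and 3 times in Mrc1, against 23.3% of 32851 promoters of the same length. TGCTGA, part of the site bound by MAF factors, occurred in 4 of the 7 (Timd4, Stab1, Folr2 and Fcrls), against 16.1% of promoters. TATAAA occurred in Fcrls, against 12.4%. The searches covered both strands, and TGCTGA and GAGGAA can overlap by 2 letters.

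The uptake receptors followed with smaller differences. Stab1, stabilin-1, which clears modified lipoproteins and dying cells, was 7.25-fold higher in C1q-high cells (log2 fold change 2.86, SE 0.32). Mrc1, the mannose receptor CD206, was 7.1-fold higher (2.83, SE 0.17), and Cd163, the receptor for haemoglobin bound to haptoglobin, 5.16-fold (2.37, SE 0.50). Adgre1, which encodes F4/80, was 5.15-fold higher (2.37, SE 0.20). It was also the member most often found outside the class, with UMIs in 31.4% of other cells and in 42.6% of monocyte-like cells.

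Cd4, the T cell co-receptor that some gut macrophages carry, was 6.1-fold higher in C1q-high cells (log2 fold change 2.61, SE 0.37, edgeR adjusted p = 1.18e-05). A Cd4 UMI was found in 102 C1q-high cells, and 1 of these held a UMI of Cd3d, Cd3e or Cd3g, the T cell receptor's signalling chains. Of the 39 other cells with Cd4, 26 held one, and 29 were in the lymphoid-like cluster.

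Timd4, which encodes the phosphatidylserine receptor TIM-4, went against its label as a macrophage gene here. Its level was lower in C1q-high than in other cells (log2 fold change -1.87, SE 0.47, edgeR adjusted p = 0.0045), and 11 of its 118 UMIs lay in C1q-high cells. Of the 48 cells with a Timd4 UMI, 39 were in the dendritic cell-like cluster, 30 held a UMI of the dendritic cell gene Flt3, 20 of Xcr1 and none of Cd3. In that cluster Timd4 was found in 23 of 261 cells with an Xcr1 or Clec9a UMI (8.81%), in 7 of 157 with Cd209a but neither of these (4.46%) and in 9 of 95 with none of the 3 (9.47%). The 3 groups had median depths of 11253, 7886 and 6447 UMIs, and over the mice with at least 20 such cells (3, 3 and 2 mice) the shares were 2.86 to 7.25%, 0 to 5.88% and 4.17 to 21.9%, so they overlapped, and the pooled 8.81% lay above the range of its 3 mice. Timd4 was at 0 in the 446 monocyte-like cells, which allows a share of cells with a UMI of up to 0.673%, for counting error only.

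Clusters built without the members placed their levels more finely. The macrophage-like cluster 5, led by Ms4a7 and Apoe, and cluster 7, led by the chemokine gene Ccl8 and left unnamed with none of the fixed markers among its leading genes and a median of 1150 UMIs per cell, held the highest 2 levels of 7 members. Of these, Cd163 and Lyve1 had only 2 UMIs and 1 UMI in cluster 7, so their place is not certain. Pf4 lay at 2111 ± 760 CPM (SD, n = 6 mice) in cluster 7 and 1159 ± 313 (n = 5) in cluster 5. Folr2 lay at 212 ± 55.3 and 91.4 ± 33.1 CPM and Fcrls at 670 ± 206 and 544 ± 124. The mean ± SD ranges of clusters 7 and 5 overlapped for Fcrls and Pf4 and did not for Folr2.

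The means of Mrc1, Adgre1 and Stab1 were in the other order, higher in cluster 5 than in cluster 7. Mrc1 lay at 306 ± 85.9 CPM in cluster 5, 178 ± 100 (n = 6) in cluster 6, 116 ± 58.2 in cluster 7 and 114 ± 27.2 (n = 5) in cluster 1, so that clusters 6, 7 and 1 did not differ beyond their spread. Adgre1 lay at 743 ± 128 CPM in cluster 5 and 505 ± 137 in cluster 7, and Stab1 at 174 ± 61.1 and 101 ± 42.2, both with overlapping ranges. Cd4 was highest in the lymphoid-like cluster at 65.9 ± 43.1 CPM, beside 46.3 ± 23.8 in cluster 7 and 45.5 ± 36.1 in cluster 5, within each other's spread. Timd4 was highest in the dendritic cell-like cluster at 33.9 ± 36.6 CPM (n = 7).

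**Figure D2:**
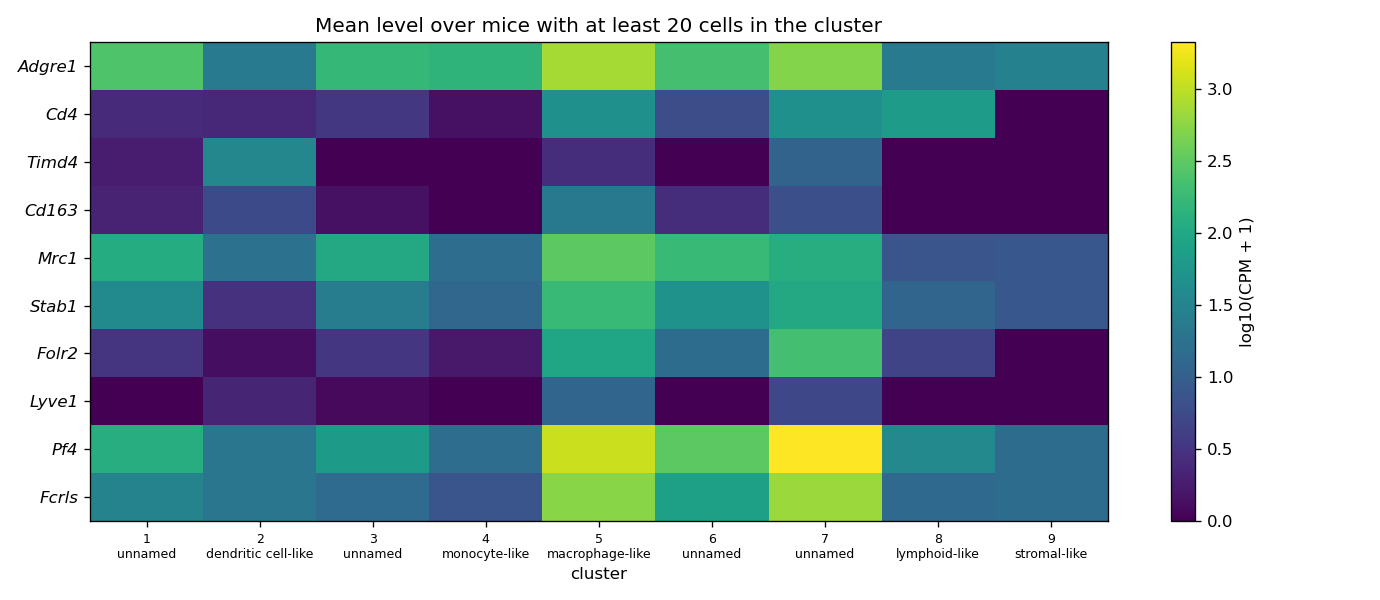
Mean level of each member per cluster as log10(CPM + 1), over mice with at least 20 cells in the cluster (1 mouse for cluster 9). Clusters 5 and 7 are brightest for Pf4, Fcrls, Folr2, Adgre1 and Stab1, while the brightest cell of Timd4 is the dendritic cell-like cluster.

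Over 46 sums per mouse and cluster, the genes most like the 10 members together were Ms4a7 (Pearson r = 0.95), C1qc (0.93), C1qa (0.92), Apoe (0.91) and Hpgds (0.91), among 4751 genes. These sums share mice and clusters, so the values describe the pattern. For single members the most alike gene was Hpgds for Pf4 (0.93) and Fcrls (0.92), Ccl8 for Folr2 (0.93), Ctsc for Adgre1 (0.93), Ms4a7 for Stab1 (0.91) and C1qc for Mrc1 (0.87). Cd4 was most like the B cell gene Cd79b (0.76) and Timd4 like Plet1 (0.75). Cd163 with Grn (0.50) and Lyve1 with Dctn5 (0.47) had no close match.

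Within C1q-high cells the members were found together. A C1q-high cell held UMIs of a median of 2 members, and 9.25% of them held none, against 47.5% of other cells. After each cell was thinned to 1000 UMIs, which left out 107 shallower C1q-high cells, 31.5% of 974 C1q-high cells and 81.2% of 2061 other cells held none. At least 3 members were found in 201 thinned C1q-high cells and in 7 of the other cells. Detection in C1q-high cells before thinning was 69.3% for Adgre1, 58.9% for Pf4, 48.8% for Mrc1, 44.2% for Fcrls, 28.0% for Stab1, 14.3% for Folr2, 9.44% for Cd4, 2.78% for Cd163, 1.02% for Lyve1 and 0.648% for Timd4.

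Free RNA can give UMIs in cells that do not express a gene, so the lymphoid-like cells serve as a background, at a median of 3570 UMIs per cell against 4357 in C1q-high cells. There, Pf4 was found in 13.2%, Adgre1 in 8.79%, Fcrls and Stab1 in 4.95%, Mrc1 in 2.75% and Folr2 in 1.65%. Thinned to 1000 UMIs, Pf4 was found in 37.5% of C1q-high and 3.33% of lymphoid-like cells. For Mrc1 the thinned values were 21.9% and 0%, where 0 of 180 cells were found.

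Pf4 and Fcrls formed the closest pair. Of thinned C1q-high cells with Fcrls, 69.6% also held Pf4, against 26.2% of those without Fcrls. Of those with Folr2, 87.3% held Pf4, against 34.0% without. In 787 C1q-high cells of at least 2000 UMIs, Pearson r over cells was 0.63 for Pf4 and Fcrls and 0.52 for Stab1 and Fcrls, the highest of 45 pairs; these cells share libraries and differ in depth.

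**Figure D3:**
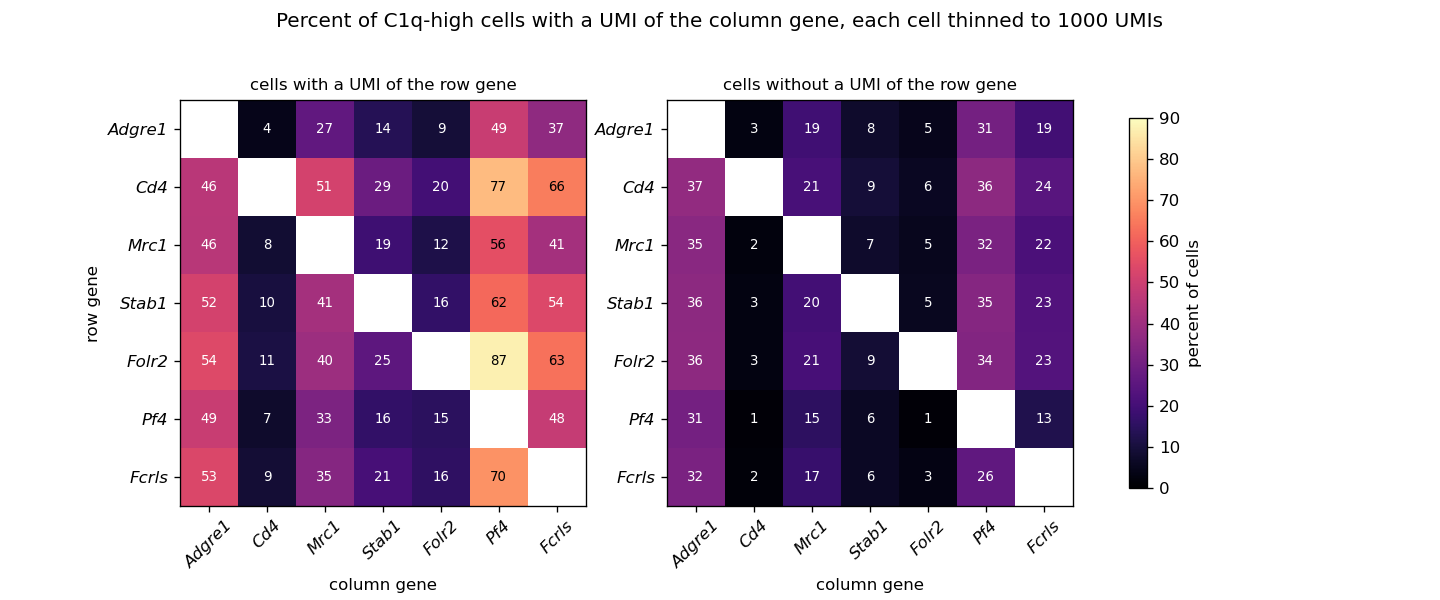
Percent of C1q-high cells with a UMI of the column gene among cells with (left) and without (right) a UMI of the row gene, each thinned to 1000 UMIs, for the 7 members with enough UMIs. Over cells pooled from all mice the left values exceed the right ones, as for Pf4 in cells with Folr2 (87.3%) and without (34.0%). For Pf4 by Folr2 this order held in all 5 mice with at least 5 Folr2 cells. For Cd4 by Adgre1 it held in 4 of 8 mice.

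The rarer genes were mostly found in cells with these genes, in counts before thinning. All 30 C1q-high cells with Cd163 held Pf4, 28 held Fcrls and 22 held Folr2. Of those without Cd163, 57.8, 42.8 and 12.7% did. Only 2 mice held at least 5 C1q-high cells with Cd163. After thinning 6 such cells were left, of which 4 held Pf4, 4 Fcrls and 3 Folr2. Lyve1, the hyaluronan receptor of lymphatic vessels and perivascular macrophages, had 24 UMIs in 16 cells of 4 mice. Of its 11 C1q-high cells, 10 held Folr2, against 13.6% of C1q-high cells without Lyve1. Timd4 was found in 7 C1q-high cells, all with Fcrls and 5 with Folr2, against 43.9 and 14.0% of C1q-high cells without Timd4. One cell held Timd4, Lyve1 and Folr2 together, and 158 held at least 1 of them.

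Pf4 is also a platelet gene. Of the 4 platelet markers measured, Itga2b and Treml1 were at 0 in C1q-high cells, Gp6 had 2 UMIs and Ppbp had 31. Their sum lay between 4.57 and 27.5 CPM in control mice and between 0 and 13.8 CPM in cKO mice, against 387 to 1352 CPM for Pf4. Among the 1058 C1q-high cells without a Ppbp UMI, 58.1% held Pf4, and of the 23 with one, 22 did (95.7%). Ppbp was itself higher in C1q-high than in other cells (log2 fold change 4.15, SE 0.69), and its part in the Pf4 level was not tested.

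C1q-high cells with under 2000 UMIs differed from deeper ones, a comparison chosen after the values were seen (6 mice, mouse as a block). Folr2, Pf4 and Fcrls were higher in the shallower cells, where 0.53% of 8687 genes were called higher and 5.34% lower. Pf4 lay between 1290 and 3463 CPM in the shallower cells of the control mice tested and between 425 and 1243 CPM in their deeper ones. Control replicate 3, with 11 shallower cells, was not in the test. Its log2 fold change was 1.48 (SE 0.13, edgeR adjusted p = 3.23e-28), that of Folr2 was 2.04 (SE 0.28, adjusted p = 3.33e-11) and that of Fcrls 0.99 (SE 0.16, adjusted p = 2.17e-07). These p-values rest on a spread pooled over genes and do not measure that of each gene between the 6 mice.

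The other 5 members tested were not called. Mrc1 had a log2 fold change of -0.25 (SE 0.21) and Adgre1 one of -0.09 (SE 0.16), and both were above 0 under library totals without TMM. The median of all genes lay at -0.48, and at -0.15 with DESeq2, which called 97 genes higher and 111 lower where edgeR called 46 and 464, and edgeR with library totals 118 and 156. Pf4, Folr2 and Fcrls were called higher by all 3. Among the resident macrophage regulators, edgeR called 8 of 14 lower and none higher, led by Id3 (-1.60), Zeb2 (-1.59) and Runx3 (-1.23), and DESeq2 called 3. Of the macrophage identity genes 4 were lower, led by Itgam (-1.59), Cd14 (-1.38) and Csf1r (-0.92), and Cd81 (0.62) and Cd63 (0.47) were higher. Of 12 other scavenger receptors 4 were lower by edgeR, led by Lrp1 (-1.72), Mgl2 (-0.92) and Axl (-0.84), and 0 by DESeq2. None of 6 relatives of the members was called by either tool, with 3 at an unadjusted p under 0.05, as for Lag3 (-1.94, SE 0.75) and Havcr2 (-1.43, SE 0.70).

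**Figure D4:**
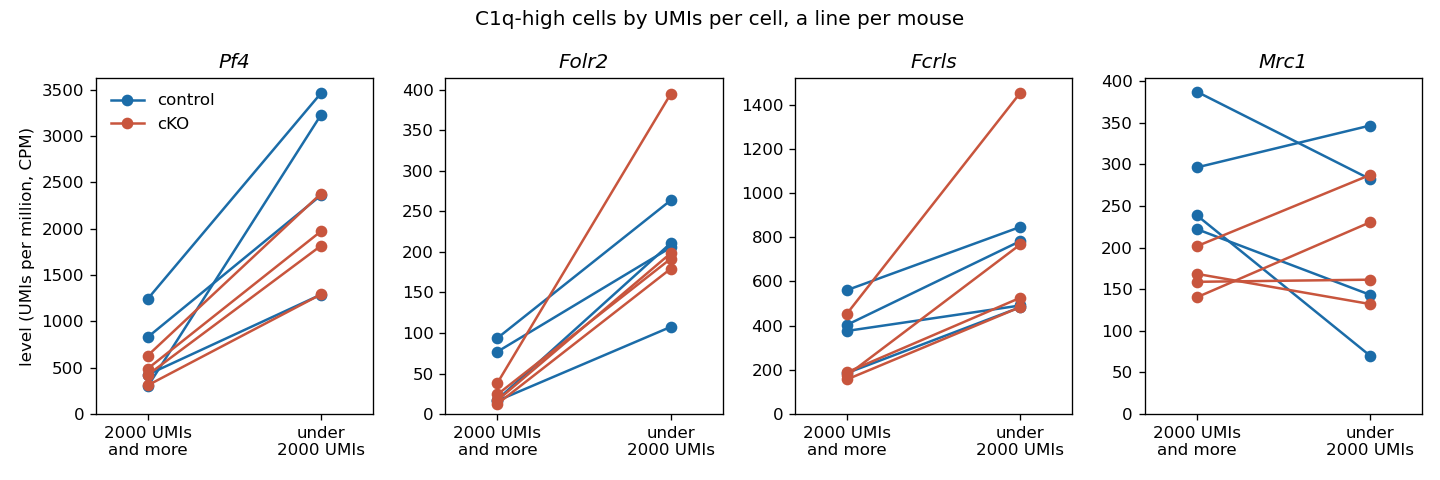
Level of 4 members in C1q-high cells of 2000 UMIs and more and under 2000 UMIs, a line per mouse in CPM (blue control, red cKO). The lines of Pf4 and Folr2 rise in all 8 mice, while those of Mrc1 go both ways.

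Between the conditions, no member passed the test. Over all cells, 0 of 9 members were called, against 4.48% of 11387 genes, and 1 member had an unadjusted p under 0.05, against 20.6% of genes. Of the 9 log2 fold changes, 8 were below 0, against 52.7% of all genes, with a median of -0.65 against -0.03 over all genes. Members were found in the same cells, so their signs are not independent of each other. The genes called were 341 higher and 169 lower, and with library totals in place of TMM 270 higher and 261 lower around a median of -0.13. In C1q-high cells 0 of 8 members were called, against 0.884% of 8828 genes, and 2 members had an unadjusted p under 0.05, against 8.73% of genes. All 8 log2 fold changes were below 0, against 52.4% of all genes, with a median of -0.61 against -0.03. Folr2 lay above 0 (0.081) with a C1q cut of 1%. Without control replicate 2 the members' median was -0.29 over all cells and -0.22 in C1q-high cells. DESeq2 called 0 members in both comparisons. In sums over all cells, fewer cells of a type and less RNA per cell cannot be told apart. In the cells outside the C1q-high class, not tested by condition, the Mrc1 means were 32.9 CPM in control and 33.0 CPM in cKO mice. The means of Adgre1 (76.3 and 104 CPM), Stab1 (10.6 and 21.7 CPM), Cd4, Timd4 and Pf4 were higher in cKO mice. Those of Cd163, Folr2, Lyve1 and Fcrls were lower, and the groups overlapped for each member.

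Mrc1 came nearest to a call. In C1q-high cells it lay at 299, 382, 226 and 217 CPM in control replicates 1 to 4 and at 164, 148, 208 and 159 CPM in cKO replicates 5 to 8. All cKO mice were below all control mice, as for 2.76% of genes tested there. The log2 fold change was -0.71 (SE 0.22, edgeR adjusted p = 0.249). Over all cells it was -0.65 (SE 0.20, edgeR adjusted p = 0.0886), with means of 113 ± 30.5 and 67.0 ± 8.66 CPM (SD, n = 4 each), and all cKO mice were again below all control mice, as for 8.34% of genes. Without control replicate 4, Mrc1 was called over all cells (edgeR adjusted p = 0.0279). Without control replicate 2 its log2 fold change was -0.53 in both comparisons, with an edgeR adjusted p of 0.276 over all cells and 0.834 in C1q-high cells.

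Cd4 in C1q-high cells lay at 35.0, 84.4, 16.5 and 11.8 CPM in control mice and at 14.9, 31.9, 13.01 and 10.4 CPM in cKO mice. Control replicate 2 was highest, and the groups overlapped. The log2 fold change was -1.21 (SE 0.54, edgeR adjusted p = 0.536), and with no filter on low counts the adjusted p was 0.0372. Without control replicate 2 the log2 fold change was -0.40 (edgeR adjusted p = 0.999). Within the macrophage-like cluster, over only 5 mice with at least 20 cells there, it was -2.23 (edgeR adjusted p = 0.213). Over the alternatives, the edgeR or DESeq2 adjusted p ranged from 0.0372 to 0.999.

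Pf4 in C1q-high cells lay at 921, 1352, 528 and 482 CPM in control mice and at 829, 547, 387 and 633 CPM in cKO mice, a log2 fold change of -0.47 (SE 0.29). Fcrls lay at 426, 575, 385 and 205 CPM and at 568, 228, 216 and 189 CPM (-0.47, SE 0.33). Both sets overlapped, and cKO replicate 5 was far above the other cKO mice for Fcrls. The groups overlapped as well for Adgre1, at 254 to 752 CPM in control and 274 to 500 CPM in cKO mice (-0.36, SE 0.29), and for Stab1, at 57.8 to 235 and 61.3 to 149 CPM (-0.71, SE 0.37). Folr2 lay at 22.4 to 102 and 27.4 to 72.6 CPM (-0.51, SE 0.41), and Cd163 at 0 to 27.8 and 0 to 13.01 CPM (-1.14, SE 0.83), again with overlap. Without control replicate 2 these C1q-high log2 fold changes were -0.12 for Pf4, -0.23 for Fcrls, -0.13 for Adgre1, -0.22 for Stab1, -0.16 for Folr2 and -0.26 for Cd163. Without cKO replicate 7, Cd163 lay at -2.26.

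**Figure D5:**
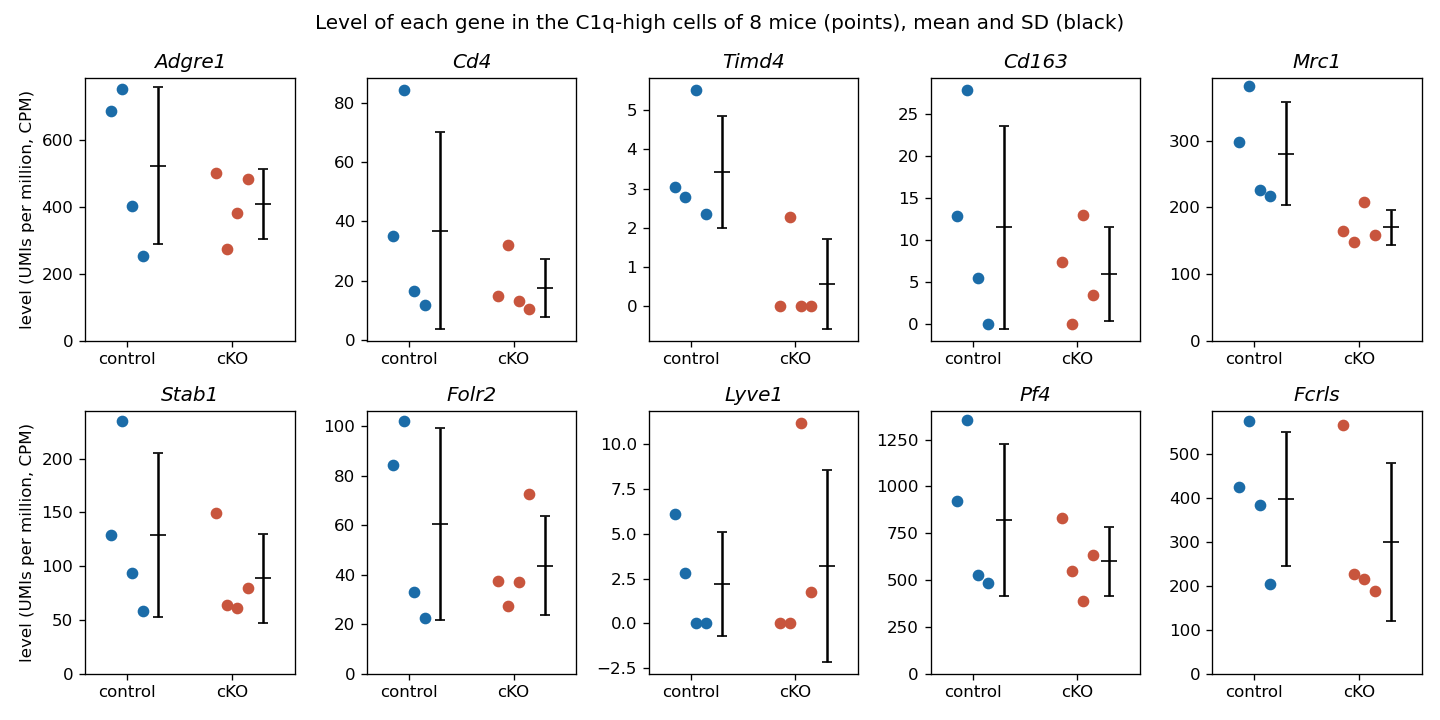
Level of each member in the C1q-high cells of each mouse in CPM, with the mean and SD per group in black. The groups overlap for 8 members; the cKO points lie below the control points for Mrc1 and for Timd4, whose cKO group held 1 UMI.

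Control replicate 2 was the highest mouse for 8 of the 10 members in C1q-high cells, and control replicate 4 the lowest for 4. The spread among control mice was therefore wide, with Pf4 at 821 ± 405 CPM. Timd4 had 10 UMIs in the C1q-high cells of control mice and 1 in those of cKO mice, a ratio of pooled CPM of 0.203 with an exact 95% counting interval of 0.00467 to 1.42. Lyve1 had 11 and 7 UMIs, a ratio of 1.29 (0.424 to 3.64). These intervals cover counting error only.

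A mean of 2.91 ± 0.81 members was found per C1q-high cell in control mice and 2.40 ± 0.38 in cKO mice (SD, n = 4 each; two-sided exact permutation p = 0.343). After thinning the means were 1.58 ± 0.54 and 1.16 ± 0.15 (exact permutation p = 0.143).

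Pooled over mice, the C1q-high cells of the groups were spread over the clusters in different shares, with no value per mouse and no test. Control replicates 1 and 2 held 287 and 215 of the 720 C1q-high cells of control mice. Of the C1q-high cells of control mice, 43.6% were in cluster 5 and 1.94% in cluster 3, led by Saa3 and Il1a, and of those of cKO mice 18.3% and 18.8%. Cluster 7 held 17.1% and 31.6%. All 8 monocyte markers had UMIs in C1q-high cells, and their summed level was 705 to 2038 CPM in control and 2428 to 3936 CPM in cKO mice (exact permutation p = 0.0286, the smallest this design allows). Their part in the members' values was not tested. Within the macrophage-like cluster, 5 mice with enough cells gave a log2 fold change of -0.59 for Mrc1 (SE 0.25, edgeR adjusted p = 0.481).

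Some other genes of these pathways changed over all cells. Beside 4.48% of all genes called, the counts per list were as follows, with no test of the lists. Of 15 other scavenger and phagocytic receptors tested, 3 rose and 2 fell in cKO mice. Siglec1, the sialoadhesin of macrophages, rose (log2 fold change 2.36, SE 0.33), and the C-type lectin genes Mgl2 (-2.12, SE 0.25) and Clec10a (-1.65, SE 0.39) fell. Of the macrophage identity genes, 4 rose, led by the uptake receptor gene Mertk (1.43, SE 0.26), Cd14 (1.21, SE 0.31) and Fcgr1 (0.97, SE 0.20), and Cd63 fell by 0.73 on the log2 scale. Of 14 regulators, Nr1h3 (1.45) and Spic (1.22) rose and Irf8 fell by 0.89. Of 8 relatives of the members, Cd44 rose (0.74). Summed dendritic cell markers were 703 to 839 CPM in control and 156 to 306 CPM in cKO mice over all cells, and monocyte markers 1862 to 3756 and 7776 to 12004 CPM, and neutrophil markers 21.1 to 44.8 and 49.6 to 88.4 CPM (exact permutation p = 0.0286 for each), and their part in these values was not tested.

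In C1q-high cells edgeR called 0 genes of these 4 lists, against 0.884% of 8828 genes. An unadjusted p under 0.05 was found for 5 of 18 identity genes and 4 of 13 scavenger receptors. It was found for 1 of 6 relatives and 2 of 14 regulators, against 8.73% of all genes, with no test of the lists. DESeq2 called 1 identity gene and 1 scavenger receptor. Siglec1 had a log2 fold change of 2.01 (SE 0.54, adjusted p = 0.117) and Cd36 one of -1.98 (SE 0.68). Cx3cr1 lay at -2.45 (SE 0.65, adjusted p = 0.11), Mertk at 1.05 (SE 0.36), Spic at 0.82 (SE 0.39) and Nr1h3 at 0.75 (SE 0.33). Among the relatives, Adgre4 lay at 0.72 (SE 0.33) and Ppbp at -0.34 (SE 0.81). C1qa, C1qb and C1qc had values of -0.25, -0.18 and -0.37, and EYFP, which reports the Cx3cr1 promoter, one of -0.85 (SE 0.26, adjusted p = 0.223). Against the other cells, where 9.24% of all genes were higher and 13.7% lower, 8 of 15 scavenger receptors were higher in C1q-high cells and 3 lower, led by Fcna (4.48), Colec12 (-2.54) and Axl (1.86), as were 7 and 2 of 14 regulators, led by Spic (2.40), Maf (2.04) and Nr1h3 (1.79). Of 8 relatives 2 were higher and 3 lower, led by Ppbp (4.15), Fcrla (-2.93) and Lag3 (1.02).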

How the data were processed

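Cells of 8 mice were profiled with the 10x 3′ assay, a well per mouse. Per the labels and methods, the authors aligned reads with Cell Ranger and STAR 2.5.3a to mm10 with EYFP added and deposited raw UMI counts per gene and cell, merged without down-sampling. The members and gene lists were chosen with earlier results of these data known.

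Cells with at least 10 to the power 2.8 UMIs and 2.6 genes, at most 5% mitochondrial UMIs and no haemoglobin UMI were kept. Scrublet (scanpy 1.11.5) calls were kept in. Cells were clustered with scran 1.30.0 into 9 Ward clusters, without the members, C1q genes, Cx3cr1, EYFP and Slc3a2. Counts were summed per mouse from at least 20 cells and tested with edgeR 4.0.16 (TMM, quasi-likelihood) in R 4.3.3, with Benjamini-Hochberg adjustment at 0.05, for genes above 1 CPM in at least 3 sums and with UMIs in at least 20 cells. Fits were tested on simulated data with 200 genes changed 4-fold, of which 168 of all cells (11357 genes), 143 of C1q-high cells (8827 genes) and 174 of the class comparison (11384 genes) were recovered. Wrong calls numbered 6, 5 and 4. The simulated spread between mice was fixed for all genes (coefficient of variation 0.3). Smaller changes, as those of the members between the conditions, were not simulated, so their recovery is not known. Single values were compared by exact permutation. Alternatives were DESeq2 1.42.0, library totals, no low-count filter, doublets left out, 10% mitochondrial UMIs, C1q cuts of 0.2 and 1%, cells of at least 2000 UMIs, at least 10 cells, the macrophage-like cluster, no mouse block, and each mouse left out. The depth comparison and leaving out both small libraries were added after the data were seen. All members and the 3 largest calls of each list (2 examples where none passed), the 5 genes most like the members by log2(CPM + 10) among genes of at least 20 CPM, and 1 for each member are named. In the depth comparison the spread was pooled over genes. In the other edgeR and DESeq2 fits the spread of each gene between mice was drawn towards that of other genes. Their p-values therefore do not measure the spread of that gene alone. Exact permutation p-values rest on values per mouse.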

Additional observations from a re-analysis of the deposited data

Results flagged for a closer look

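Of 42 groups of 4 mice examined, 4 held a mouse whose gap to the nearest other mouse was over Dixon's 95% limit, which chance passes in about 1 in 20 groups. Fcrls in C1q-high cells lay at 567.7 CPM in cKO replicate 5, a library of 83 cells. Lyve1 lay at 11.15 CPM in the C1q-high cells and at 3.218 CPM in all cells of cKO replicate 7. Timd4 lay at 2.28 CPM in the C1q-high cells of cKO replicate 6 and at 0 in the other cKO mice, a single UMI.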

How the results depend on the processing

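No paired analysis was possible. The paper states that littermates were used, but the labels, with control mice numbered 1 to 4 and cKO mice 5 to 8, name no litter. Against other cells, 9 or 10 members were called in all 16 alternatives, and Lyve1 was the tenth with no low-count filter. Over all cells 0 or 1 members and 155 to 738 genes were called with a mouse left out, the lowest without control replicate 2 (155), control replicate 1 (169), cKO replicate 7 (187) and cKO replicate 8 (270), and 787 with no low-count filter. In C1q-high cells 37 to 163 genes were called with a mouse left out (37, 41, 42 and 38 without control replicates 1 and 2 and cKO replicates 7 and 8, and 163 without control replicate 4), 209 genes and 1 member (Cd4) with no low-count filter, 46 with a C1q cut of 1% and 41 in the macrophage-like cluster. The members' median log2 fold change was -1.14 in cells of at least 2000 UMIs and between -0.83 and -0.22 with a mouse left out, and over all cells between -0.85 and -0.29. The value of -1.14 came without cKO replicate 5, which held only 16 such cells. Leaving out that mouse alone gave -0.80. The C1q-high share differed by -11.7 points with 10% mitochondrial UMIs and by -12.6 points in cells of at least 2000 UMIs (exact permutation p = 0.0286 both). Timd4 over all cells, 0.01, was -0.10 with library totals, -0.01 (-0.0071) with 10% mitochondrial UMIs, -0.034 without both small libraries and -0.46 to 0.42 with a mouse left out; Cd4 was -0.99 to 0.0031. Folr2 in C1q-high cells was 0.081 with a C1q cut of 1%. In the depth comparison, genes called were 208 with DESeq2, 274 with library totals and 338 (without cKO replicate 7) to 451 with a mouse left out; Adgre1 was 0.20 and 0.19, and Mrc1 0.041 and 0.040, with DESeq2 and library totals, Cd163 0.58 with DESeq2, Adgre1 -0.22 to 0.056 and Stab1 -0.11 to 0.69 with a mouse left out. The cause of these changes was not tested. Depth limits Timd4, Lyve1 and Cd163 most.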
